A study of Mus musculus with 6 samples.

Results

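Chl1, Csmd1, Kif26b and Tnfsf8 are the 4 genes described here, of 20490 gene symbols held by all 6 count tables of the series. They were chosen by their ratio of bleomycin to PBS counts in fibroblasts (FBs), which placed them among the genes that rose most in both bleomycin experiments in mouse lung, so their rise from PBS to bleomycin in the lung is a description of the choice and was not tested. Their distribution among FB subsets and other cell types was read from the same lung libraries and is also given without a test. Their levels in organoid FBs came from libraries that the choice did not use.

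The series compares sorted mouse lung FBs with and without exposure to bleomycin, an agent that injures alveoli and leads to fibrosis, by droplet single-cell RNA-Seq. Male Pdgfra-GFP reporter mice, in which green fluorescent protein marks cells using the Pdgfra gene, received PBS or bleomycin by oropharyngeal aspiration, and GFP+ cells were sorted. In the single-dose experiment lungs were taken on day 14 after PBS (50 μL) or bleomycin, for which the protocol gives 2 U/kg and the sample label 4 U/kg. In the repetitive experiment PBS or bleomycin was given weekly for 3 weeks, with bleomycin at 1 U/kg for the earlier doses and 0.5 U/kg for the last, and lungs were taken 14 days after the last dose. The organoids (alveolospheres) were grown for 14 days in Matrigel from tomato+ alveolar type 2 cells, labelled in SpcCreER mice by tamoxifen, mixed with GFP+ FBs of PBS-dosed mice (normal FBs) or of mice dosed with 2 U/kg bleomycin (fibrogenic FBs). Each library pooled 3 mice, and there was 1 library per condition. The intervals given are 95% intervals for counting error only, with no measure of the spread between mice or preparations. Those of CPM also leave out the spread between cells.

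CHL1 is an adhesion molecule of the L1 family that is best known for its role in axon growth. CSMD1 is a very large membrane protein of CUB and Sushi domains that can inhibit complement, KIF26B is an unconventional kinesin that acts downstream of Wnt5a and Ror receptors, and TNFSF8 (CD30 ligand) is a membrane cytokine of activated T cells and other leukocytes whose receptor is CD30, encoded by Tnfrsf8. In the lung, alveolar FBs support type 2 cells, and after injury FBs turn towards states that make collagen, among them Cthrc1-positive cells.

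In GRCm38, the build of the tables, the GENCODE annotation places Chl1 (ENSMUSG00000030077.11) at chr6:103510586-103750211 on the plus strand and Kif26b (ENSMUSG00000026494.12) at chr1:178529125-178939200, also on the plus strand. Csmd1 (ENSMUSG00000060924.15) lies on the minus strand at chr8:15892537-17535586, and Tnfsf8 (ENSMUSG00000028362.2) on the minus strand at chr4:63831308-63861347. All are protein coding. Csmd1 spans 1643 kb, of which 1.16% is exonic, and Kif26b spans 410 kb, of which 3.58% is exonic. Chl1 spans 240 kb (5.13% exonic) and Tnfsf8 spans 30.04 kb (12.7% exonic), so the genes differ widely in how much intron they hold.

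Because the 4 genes rose together, the bases just before their start sites were read from RefSeq promoters of GRCm38.p6, in which 3 of the 4 genes were found and Csmd1 was not. Of these windows, the part outside annotated exons is shown, 5′ to 3′ on the gene's strand, for Kif26b (chr1:178528875-178529124, plus strand) and Tnfsf8 (chr4:63861348-63861534, minus strand). Capitals mark the only match to the motifs searched.
Kif26b: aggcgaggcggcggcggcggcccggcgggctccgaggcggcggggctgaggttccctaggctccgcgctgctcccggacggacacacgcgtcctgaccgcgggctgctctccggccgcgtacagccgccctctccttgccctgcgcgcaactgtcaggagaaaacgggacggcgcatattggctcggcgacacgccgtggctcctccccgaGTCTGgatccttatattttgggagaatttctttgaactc
Tnfsf8: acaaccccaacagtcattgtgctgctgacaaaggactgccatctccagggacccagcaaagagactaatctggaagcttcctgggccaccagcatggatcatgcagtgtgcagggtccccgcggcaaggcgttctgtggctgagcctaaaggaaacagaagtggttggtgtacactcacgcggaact
The window before the Chl1 start lay wholly within an exon of another transcript and is not shown. Both strands were searched for a few short motifs. The AP-1 motif, with the letters TGANTCA, is held by 6.87% of 27025 promoters of the same length. The TEAD motif, spelled GGAATG, is held by 12.6% of them, the SMAD motif CAGAC by 42.1%, and the TATA box, searched as TATAAA, by 13.0%. The cAMP response element half-site TGACG is held by 17.9%. The match in Kif26b is the SMAD motif on the opposite strand, 39 bases before the start. The 250 bases before the start were 68.4% G or C in Kif26b, 54.4% in Tnfsf8 and 52.4% in Chl1.

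The 6 tables held between 1015 and 10737 barcodes each. FBs were barcodes with at least 1000 UMIs (distinct transcript molecules), at most 25% mitochondrial UMIs, at least 3 of 10 FB markers at 20 or more UMIs per 10000, and no more than 1 marker, or under 2 UMIs per 10000, of any other cell type. This gate kept 912 and 840 FBs in the single-dose PBS and bleomycin libraries, 5457 and 7629 in the repetitive libraries, and 2193 and 4282 in the organoids with normal and fibrogenic FBs. Median UMIs per FB were 6788, 11410.5, 10454, 3789, 47676 and 7157.5 in the same order, so depth differed between the conditions compared. Pdgfra, the gene that drives the reporter, was detected in 47.2% to 93.5% of FBs per library. Ptprc, which marks leukocytes, went from 0.165 to 1.16 CPM in single-dose FBs and from 0.288 to 1.32 CPM in repetitive FBs. Both genes are on the gate lists, so neither is an independent check of purity. Sftpc, a type 2 cell gene outside the gates, was detected in 14.0% to 50.8% of lung FBs per library. In organoids it was detected in 98.3% of normal and 97.1% of fibrogenic FBs. Between 0 and 30 barcode sequences were shared by any pair of libraries.

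Chl1 was almost absent from FBs of PBS lungs and abundant after bleomycin. In the single-dose experiment it was listed at 0 UMIs in PBS FBs (a count of 0 allows up to 3 UMIs or 0.496 CPM, where CPM is a gene's count summed over FBs and scaled to a common total of UMIs) and at 52.5 CPM (48.2 to 57.1) after bleomycin. In the repetitive experiment it went from 0.441 CPM (26 UMIs) to 73.0 CPM (70.8 to 75.2). Against this floor of 3 UMIs it was at least 106-fold higher after a single dose, and 166-fold higher (113 to 254) after repetitive doses. Detection went from 0 of 912 to 23.6% of FBs and from 0.458% to 13.7%.

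Csmd1 was the most abundant of the 4 after repetitive bleomycin and the one already present in a PBS lung. It went from 1.16 CPM (7 UMIs) to 15.98 CPM (13.6 to 18.6) after a single dose. In the repetitive experiment it went from 31.4 CPM (1854 UMIs) to 830 CPM (823 to 837), with detection rising from 4.38% to 49.5% of FBs. The folds were 13.8 (6.55 to 34.9) and 26.4 (25.2 to 27.7).

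Kif26b was at 0.331 CPM (2 UMIs) in single-dose PBS FBs and at 21.7 CPM (18.9 to 24.7) after bleomycin, a ratio of 65.6 with a counting interval of 17.9 to 545. It was at 0.407 CPM (24 UMIs) and 79.3 CPM (77.0 to 81.6) in the repetitive libraries, 195-fold apart (131 to 305). Tnfsf8 was the least abundant of the 4 in both bleomycin lung libraries. It was listed at 0 UMIs in single-dose PBS FBs and at 14.6 CPM (12.4 to 17.2) after bleomycin, at least 29.5-fold higher against the same floor, and it was at 0.525 and 19.9 CPM (18.7 to 21.0) in the repetitive libraries, 37.8-fold apart (26.5 to 55.9).

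**Figure D1:**
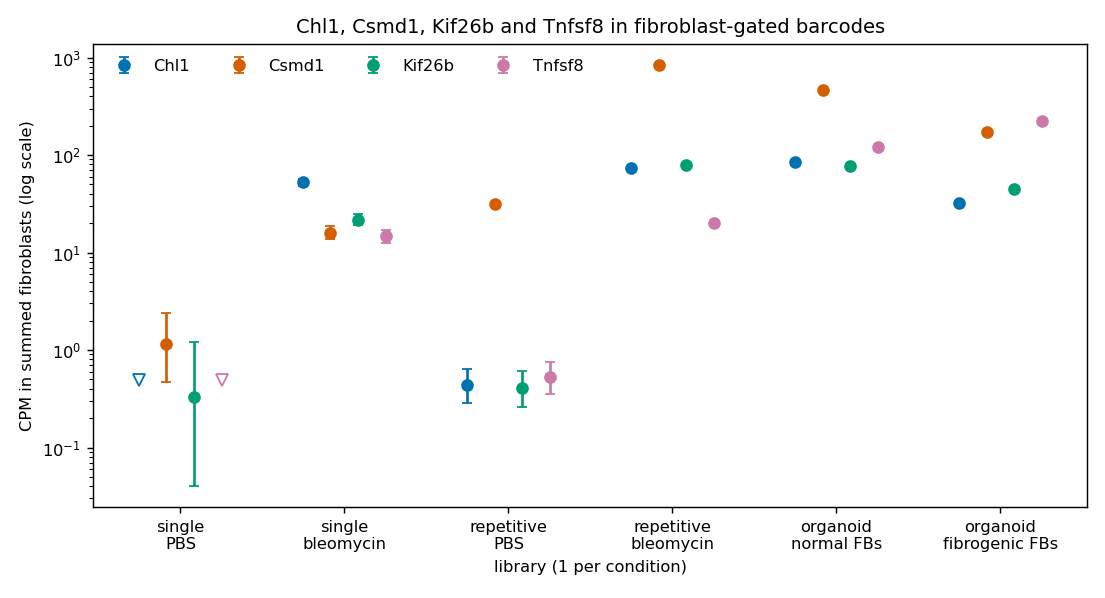
Levels of the 4 genes in summed FBs of each library, as CPM on a log axis with exact 95% Poisson intervals, with open triangles at the level of 3 UMIs where a gene was listed at 0. In the lung each gene was near the foot of the axis with PBS, except Csmd1 at 31.4 CPM in the repetitive PBS library, and at 14.6 CPM or more with bleomycin, and in both organoid libraries all 4 were at 32.4 CPM or more.

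After adding 1 CPM, the log2 ratios were 5.74, 2.98, 4.09 and 3.97 for Chl1, Csmd1, Kif26b and Tnfsf8 after a single dose, and 5.68, 4.68, 5.83 and 3.77 after repetitive doses. All 4 genes thus passed a log2 ratio of 1 in both experiments, where 6.94% of all genes with at least 10 CPM did so after a single dose and 5.78% after repetitive doses, and nothing is read from this count because the choice rested on it. Downwards the same limit was passed by 3.9% and 2.38% of all genes and by none of the 4. Ranked by the smaller of the 2 lung ratios among 7224 genes, Chl1 was 2nd, Kif26b 7th, Tnfsf8 11th and Csmd1 32nd. The genes just above Csmd1 were Batf3 (3.10), Frmd5 (3.04) and Cxcl9 (3.00), against 2.98 for Csmd1. The genes just below it were Cilp (2.94), Ube2c (2.92) and Cxcl13 (2.87).

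Csmd1 differed more between the 2 experiments than the other 3 genes, with a level 51.9-fold higher in FBs after repetitive than after single-dose bleomycin. The same ratio was 3.65 for Kif26b, 1.39 for Chl1 and 1.36 for Tnfsf8. The tables differed in a way that followed gene span. From the single-dose to the repetitive PBS library, the median log2 difference was −0.45 for genes spanning under 10 kb and 2.40 for genes of 300 kb or more, of which 88.1% were higher by 1 or more. For genes of 100 to 300 kb, the band of Chl1, the median was 1.39, and 67.6% were higher by 1 or more. For genes of 30 to 100 kb, where Tnfsf8 lies near the lower limit, the median was 0.65, and 33.0% were higher by 1 or more. Whether the later tables counted intronic reads is not given in the sources used here. Dosing and counting therefore cannot be told apart in the levels of any of the 4 genes, and no level is compared further between the experiments.

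The UMIs of each gene were concentrated in some of the FBs. After repetitive bleomycin, 97 FBs with 10 or more UMIs of Chl1 held 53.4% of its UMIs, 116 FBs held 51.0% of those of Kif26b, and 15 FBs held 43.4% of those of Tnfsf8. For Csmd1, 1014 FBs with 10 or more UMIs held 84.6%. Csmd1 already had such cells in the repetitive PBS library, where 57 FBs held 67.5% of its UMIs, so its PBS level was the level of few cells rather than of FBs at large. After a single dose, 9 FBs held 19.2% of Chl1 UMIs and 2 FBs held 25.2% of Tnfsf8 UMIs.

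In the repetitive bleomycin library most FBs with 10 or more UMIs of a gene were high in Csmd1, the most abundant of the 4 genes there. After repetitive bleomycin 960 FBs reached 10 UMIs of 1 gene, 114 of 2 genes, 18 of 3 genes and 0 of all 4. Of the FBs high in Chl1, 64.9% (63 FBs) were also high in Csmd1, which is 6.21% of those high in Csmd1. Of the FBs high in Kif26b, 58.6% (68) were high in Csmd1, or 6.71% of the latter, and of those high in Tnfsf8 53.3% (8 of 15) were. After a single dose 0 FBs reached 10 UMIs of Csmd1. In normal and fibrogenic organoids 61.4% and 48.6% of FBs high in Chl1 were high in Csmd1. The same shares were 31.7% and 17.8% for Kif26b, and 21.9% and 12.2% for Tnfsf8. Of all FBs, 13.3% were high in Csmd1 after repetitive bleomycin, 26.9% in normal and 8.03% in fibrogenic organoids. A limit of 10 UMIs is reached more often in deeper barcodes for every gene, and the part of depth in these overlaps was not tested.

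Lung FBs were divided by marker gates that hold none of the 4 genes, taken in the order cycling, mesothelial, smooth muscle or mural, matrix, Cthrc1+, Sfrp1+, alveolar-high and alveolar-low. A gate is a range of marker counts rather than a cell type, and 543 FBs of the repetitive bleomycin library lay within 20% of the matrix limit. The Cthrc1+ gate held 0 of 912 and 0 of 5457 FBs in the PBS libraries (which allows shares of up to 0.329% and 0.055%), 33 FBs after a single dose and 64 after repetitive doses, with 410 and 540 CPM of Cthrc1. Gates that need 2 UMIs of a gene select deeper barcodes, and after repetitive bleomycin the median was 16718 UMIs in Cthrc1+ FBs, 13507 in Sfrp1+ FBs, 2584.5 in matrix FBs and 2578 in alveolar-high FBs.

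Chl1 was highest in Sfrp1+ FBs after a single dose, at 79.0 CPM, followed by cycling FBs at 62.0 and matrix FBs at 57.2 CPM. It was lowest in alveolar-high FBs, at 16.3 CPM. After repetitive doses it was 138 CPM in cycling, 110.5 in Sfrp1+ and 106 in smooth muscle or mural FBs, against 19.4 CPM in alveolar-high FBs. Sfrp1+ FBs, gated on a gene for a secreted Wnt modulator, held 47 of the 97 FBs with 10 or more Chl1 UMIs, or 3.45% of the subset. The same share was 6.25% in Cthrc1+ FBs (4 of 64), 5.54% in smooth muscle or mural FBs, 0.551% in matrix FBs and 0.119% in alveolar-high FBs. The summed level of Chl1 was lower in Cthrc1+ than in Sfrp1+ FBs in both experiments, at 22.1 and 49.7 CPM.

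Kif26b had the opposite order of these subsets. In Cthrc1+ FBs it was at 63.1 CPM after a single dose and 497 CPM after repetitive doses, its highest level in both experiments, against 19.7 and 80.1 CPM in Sfrp1+ FBs and 4.22 and 30.2 CPM in alveolar-high FBs. Kif26b UMIs were present in 54.5% of Cthrc1+ FBs (18 of 33) and in 84.4% (54 of 64). In the repetitive library 31.2% of Cthrc1+ FBs had 10 or more Kif26b UMIs, against 7.87% of smooth muscle or mural FBs.

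Csmd1 was highest in the smooth muscle or mural gate after repetitive doses, at 1699 CPM, then in Cthrc1+ FBs at 1345 and alveolar-low FBs at 1322 CPM. It was at 290 CPM in alveolar-high FBs. The share of FBs with 10 or more Csmd1 UMIs was 57.8% in Cthrc1+, 46.4% in smooth muscle or mural, 23.3% in Sfrp1+, 11.4% in alveolar-low, 10.6% in matrix and 3.39% in alveolar-high FBs. A fixed number of UMIs is reached more often in deeper barcodes, and alveolar-low FBs had a median of 2062.5 UMIs. The smooth muscle or mural gate was also the highest in the repetitive PBS library, at 212 CPM in 89 FBs, against 77.5 in matrix and 7.98 CPM in alveolar-high FBs. After a single dose it was 32.3 CPM there and 6.03 CPM in alveolar-high FBs, so alveolar-high FBs had the least Csmd1 of the listed subsets in each of these 3 libraries.

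Tnfsf8 showed no subset order shared by the experiments. After a single dose it was 33.2 CPM in Cthrc1+ FBs, but these were 21 UMIs in 2 of 33 barcodes, and 4.30 CPM in smooth muscle or mural FBs. After repetitive doses it was 48.0 CPM in smooth muscle or mural, 27.4 in Sfrp1+, 14.3 in Cthrc1+ and 9.37 CPM in alveolar-high FBs. The alveolar marker list itself fell from 12981 to 3769 CPM in summed FBs after a single dose and from 10453 to 4887 CPM after repetitive doses.

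**Figure D2:**
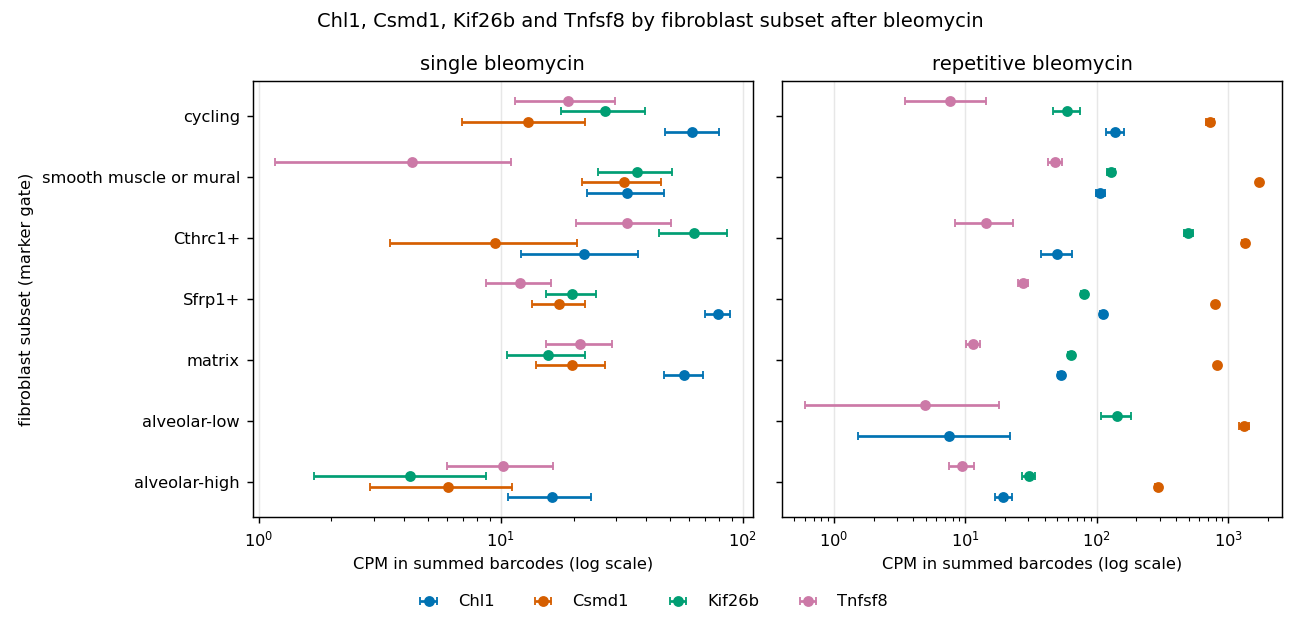
Levels of the 4 genes by marker-gated FB subset in the single-dose (left) and repetitive (right) bleomycin libraries, as CPM on log axes of different range with exact 95% Poisson intervals. Kif26b is furthest to the right in Cthrc1+ FBs in both panels, at 63.1 and 497 CPM, and alveolar-high FBs hold less Chl1, Csmd1 and Kif26b than Sfrp1+ FBs in both.

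Levels also differed with depth within the repetitive bleomycin FBs. Chl1 was at 53.3 CPM in FBs of 1000 to 2000 UMIs and at 117 CPM in those of 20000 or more. Kif26b was at 52.7 and 137 CPM, Csmd1 at 641 and 1016 CPM, and Tnfsf8 at 19.0 and 37.3 CPM, in these depth bands. The change was not steady. Chl1 was at 42.7 CPM at 2000 to 5000 UMIs, and at 5000 to 10000 UMIs Kif26b was at 32.6 and Tnfsf8 at 5.48 CPM. After a single dose, from 10000 to 20000 UMIs to 20000 or more, Chl1 went from 58.0 to 39.2 CPM. Kif26b went from 22.3 to 30.2 CPM there. The part of depth in the subset differences was not tested, since the gates themselves follow depth.

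Part of the signal in bleomycin FBs was also present in barcodes of other cell types, which bears on shares of cells with a UMI. Each barcode was thinned to 2000 UMIs, leaving out 29 FBs of the single-dose and 2419 of the repetitive bleomycin library. After repetitive doses Chl1 was then found in 7.50% of FBs (6.80 to 8.25) 5.82% of leukocytes (4.17 to 7.87) and 5.17% of endothelial or epithelial barcodes (1.92 to 10.9), which overlap. Csmd1 was found in 40.4%, 25.2% and 19.0%, with no overlap between FBs and either other class. Kif26b was found in 8.64% of FBs (7.89 to 9.43), 4.78% of leukocytes (3.29 to 6.68) and 3.45% of endothelial or epithelial barcodes (0.947 to 8.59). Its intervals in FBs and leukocytes did not overlap. Tnfsf8 was found in 2.25% of FBs (1.86 to 2.69), 2.39% of leukocytes (1.37 to 3.85) and 0.862% of endothelial or epithelial barcodes (0.0218 to 4.71). These intervals overlapped, and no expression is read from the share alone. Barcodes of 1 library are not replicates, so overlap or its lack is a description and not a test. Median depths before thinning were 3789 UMIs in FBs and 3549 in leukocytes.

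After a single dose the thinned shares were 8.88% of FBs against 2.88% of leukocytes for Chl1, 1.97% against 0 of 104 for Csmd1, and 3.33% against 0.962% for Kif26b, with overlapping intervals for all 3. A count of 0 of 104 allows a share of up to 2.88%, above the 1.97% in FBs, so no difference is read for Csmd1. Tnfsf8 was in 2.22% of FBs, 4.81% of leukocytes and 0 of 21 endothelial or epithelial barcodes, which allows a share of up to 14.3%. No difference between FBs and other types is read for Tnfsf8. With PBS, thinned shares in FBs were 0 to 0.116% in the single-dose library, and 0.0939% to 0.113% in the repetitive library except for Csmd1 at 2.72%. Median depths in the single-dose bleomycin library were 11410.5 UMIs in FBs and 7596 in leukocytes.

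Leukocytes are a type that uses Tnfsf8. T or NK barcodes had 81.7 CPM of it (6 of 24 barcodes) after a single dose and 51.4 CPM (14 of 124) after repetitive doses, against 14.6 and 19.9 CPM in FBs. With PBS they had it in 0 of 24 barcodes and at 7.45 CPM (5 of 117). Barcodes with pan-leukocyte markers alone had 192 CPM after a single dose, all of it in 1 of 8 barcodes, and 22.5 CPM after repetitive doses. Set against Col1a1, a collagen gene that FBs transcribe heavily, Tnfsf8 had 7.06 UMIs per 1000 Col1a1 UMIs in FBs and 13.6 in all other types after repetitive doses. For Chl1 the same numbers were 25.9 and 28.9, for Kif26b 28.2 and 28.8, and for Csmd1 295 and 387. In the single-dose library they were 4.59 and 28.6 for Tnfsf8, 16.5 and 23.4 for Chl1, 6.81 and 14.3 for Kif26b, and 5.02 and 7.81 for Csmd1. Each gene was thus at least as high relative to Col1a1 in other types as in FBs in both bleomycin libraries. The part of free FB RNA in the counts of other types, and of free leukocyte RNA in those of FBs, was not tested. Kif26b was also an endothelial transcript of PBS lungs, at 19.7 CPM (7.92 to 40.6) after a single dose of PBS and 22.8 CPM (16.7 to 30.4) after repetitive PBS, where FBs had 0.331 and 0.407 CPM, so endothelial cells are no reference that lacks it. Chl1 was at 17.4 CPM in T or NK barcodes of the repetitive PBS lung, as 14 UMIs in 3 of 117 barcodes, against 0.441 CPM in FBs.

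**Figure D3:**
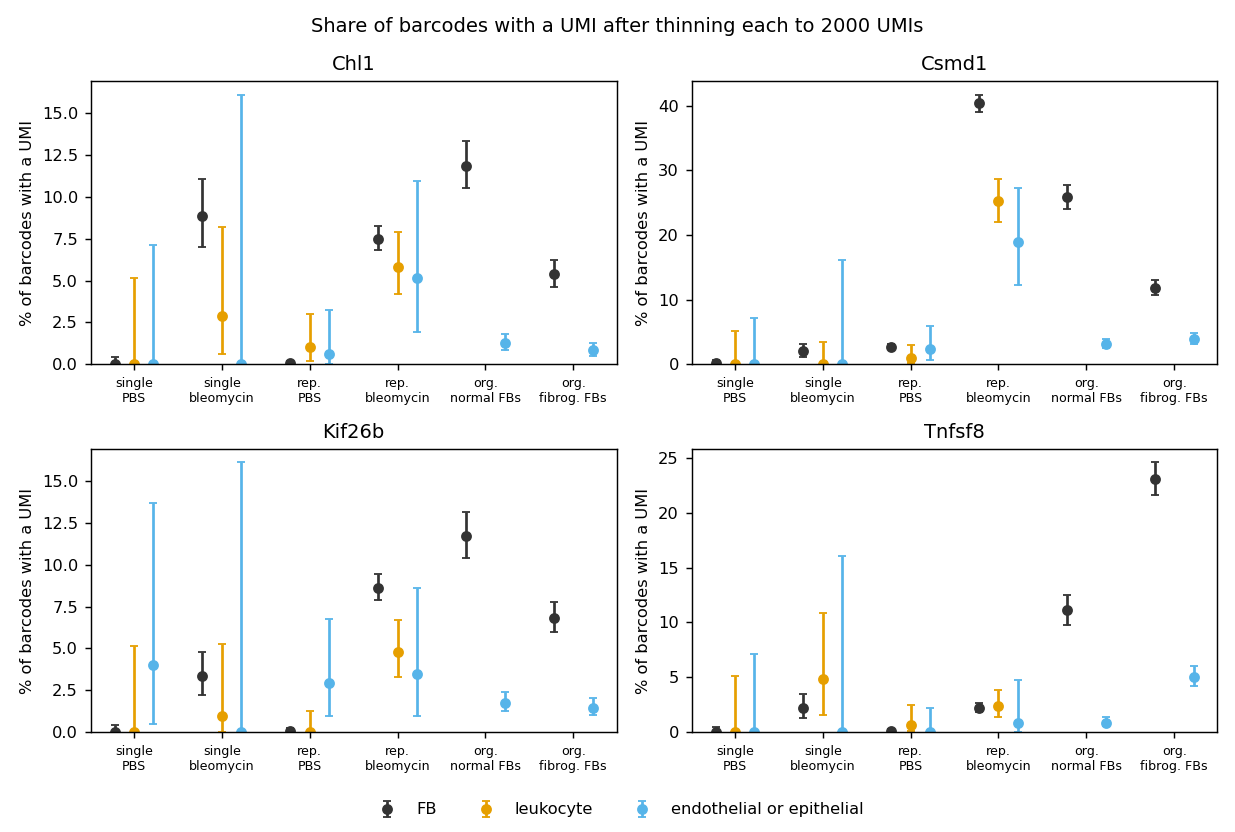
Share of FBs, leukocytes and endothelial or epithelial barcodes with at least 1 UMI of each gene after thinning to 2000 UMIs, with exact 95% binomial intervals; classes under 20 barcodes are left out. In the organoids FBs lie above endothelial or epithelial barcodes for all 4 genes, whereas Tnfsf8 in bleomycin lungs was at 2.22% and 2.25% of FBs against 4.81% and 2.39% of leukocytes.

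Pairs of the 4 genes were found in the same FBs more often than the product of their shares after repetitive bleomycin. In FBs thinned to 2000 UMIs the ratio of the observed share to the product was 2.96 for Chl1 with Tnfsf8 (26 FBs), 2.67 for Kif26b with Tnfsf8 (27) and 2.19 for Chl1 with Kif26b (74). It was 1.47 for Chl1 with Csmd1 (233), 1.43 for Csmd1 with Kif26b (260) and 1.35 for Csmd1 with Tnfsf8 (64), so all 6 pairs lay above 1. Of 5210 FBs, 2742 had none of the 4 genes at this depth, 1954 had 1, 441 had 2, 65 had 3 and 8 had all 4. All barcodes came from 1 library, so the ratios describe that library.

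Inside 1277 Sfrp1+ FBs the 6 ratios ran from 1.36 to 3.37, on 14 to 77 FBs a pair. Within 984 alveolar-high FBs Chl1 with Csmd1 was at 2.21 (17 FBs) and Csmd1 with Kif26b at 1.76 (22), and within 2450 matrix FBs they were at 1.47 (118) and 1.25 (100). Pairs with Tnfsf8 rested on as few as 1 FB in alveolar-high and 3 in matrix FBs and are not ordered. After a single dose at most 4 FBs held any pair at this depth and 4 of 6 ratios exceeded 1, which is too few cells to order the pairs. FBs positive for Chl1 after repetitive doses were deeper than negative FBs before thinning, with a median of 11175.5 against 3246 UMIs. A UMI of a leukocyte marker was found in 20.6% of them and in 15.2% of the negative FBs, and the part of doublets or free RNA in co-detection was not tested.

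**Figure D4:**
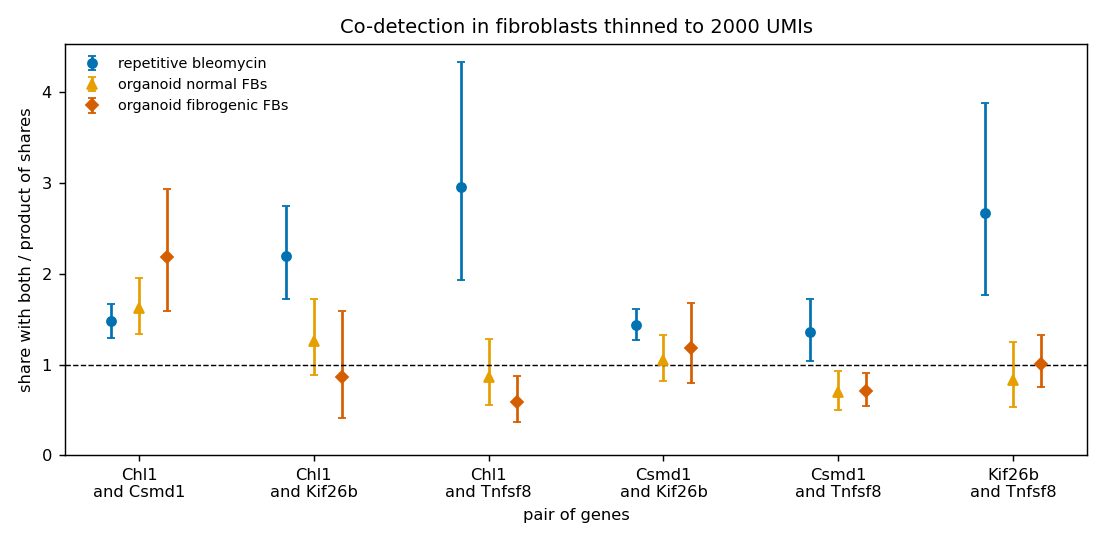
Observed share of FBs with both genes of a pair over the product of the single shares, after thinning to 2000 UMIs, in 3 libraries; error bars are exact 95% binomial intervals of the observed share divided by the product, and the dashed line marks 1. After repetitive bleomycin all 6 pairs lie above 1, whereas in each organoid library 3 of 6 do.

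In organoids all 4 genes were present in FBs of both origins after 14 days of culture. In normal FBs, which came from PBS-dosed mice, Chl1 was at 85.6 CPM (83.9 to 87.3), Csmd1 at 466 CPM (462 to 470), Kif26b at 76.9 CPM (75.3 to 78.6) and Tnfsf8 at 121 CPM (119 to 123). In fibrogenic FBs the levels were 32.4 CPM (31.5 to 33.3), 172 CPM (170 to 174), 45.1 CPM (44.0 to 46.2) and 221 CPM (219 to 223). Tnfsf8 was thus higher, and the other 3 genes lower, in fibrogenic than in normal FBs.

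The differences between the organoid libraries were small beside those in the lung. Fibrogenic FBs had 2.64-fold less Chl1 (2.55 to 2.73), 2.71-fold less Csmd1 (2.67 to 2.75) and 1.71-fold less Kif26b (1.65 to 1.76), and 1.83-fold more Tnfsf8 (1.80 to 1.87). As log2 ratios after adding 1 CPM these were −1.37, −1.43, −0.76 and 0.87. None of the 4 genes passed a log2 ratio of 1 upwards, where 0.353% of all genes did, and Chl1 and Csmd1 passed it downwards, where 0.9% of all genes did. Without barcodes holding 10 or more UMIs of any of the 4 genes neither passed, at −0.67 for Chl1 and −0.14 for Csmd1, and Tnfsf8 passed upwards at 1.38. That filter uses the counts being compared and follows depth, leaving 1139 of 2193 normal and 3162 of 4282 fibrogenic FBs, so nothing is read from it beyond where the UMIs lay. With 1 library for each FB origin the difference has no replicate check.

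Beside the repetitive PBS lung, the PBS library counted over the same gene rows, normal FBs in organoids had 194-fold more Chl1 (133 to 298), 14.8-fold more Csmd1 (14.2 to 15.5), 189-fold more Kif26b (127 to 295) and 230-fold more Tnfsf8 (162 to 338). All 4 genes passed a log2 ratio of 1 upwards, where 12.3% of all genes did. These libraries differ in culture, cell mixture, preparation and depth, which cannot be told apart, and this comparison was chosen after the levels were seen. Without barcodes holding 10 or more UMIs of any of the 4 genes, the log2 ratio of Csmd1 was 0.54, and 97.9% of Csmd1 UMIs in normal organoid FBs lay in barcodes with 10 or more of them, so this value follows from the filter. The alveolar marker list was at 319 CPM in normal and 244 CPM in fibrogenic organoid FBs, against 10453 CPM in FBs of the repetitive PBS lung.

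In organoids the FB shares were higher than the epithelial ones for all 4 genes, as a description of 1 library per FB origin. After thinning, in normal FBs they were 11.9% for Chl1, 25.8% for Csmd1, 11.7% for Kif26b and 11.1% for Tnfsf8, against 1.25%, 3.14%, 1.76% and 0.878% of epithelial or endothelial barcodes. With fibrogenic FBs they were 5.39%, 11.8%, 6.82% and 23.1% against 0.821%, 3.93%, 1.47% and 5.06%. Unthinned, Tnfsf8 was found in 32.6% of normal and 42.1% of fibrogenic FBs, at median depths of 47676 and 7157.5 UMIs, while Kif26b went from 49.2% to 27.0%. Median depths of epithelial barcodes were 39500 and 13415 UMIs.

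The genes took different places among organoid FB subsets. Chl1 was highest in matrix FBs (157 CPM normal, 108 CPM fibrogenic) and Sfrp1+ FBs (132 and 70.8 CPM) and low in cycling FBs (58.0 and 18.3 CPM). Tnfsf8 was at 147 CPM in cycling and 146 CPM in smooth muscle or mural FBs of normal organoids, with overlapping counting intervals. In fibrogenic organoids it was at 246 and 220 CPM in these subsets. Matrix FBs had 42.3 CPM of it in normal and 95.1 CPM in fibrogenic organoids. FBs with 10 or more Tnfsf8 UMIs made up 21.2% of cycling FBs in normal (150 of 706) and 32.2% in fibrogenic organoids (418 of 1299). The same share was higher in smooth muscle or mural FBs, at 23.8% (62 of 261) and 36.4% (127 of 349). A fixed number of UMIs is reached more often in deeper barcodes, and cycling FBs had medians of 61097 and 69174 UMIs.

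In organoids Kif26b was not highest in Cthrc1+ FBs. They had 67.1 CPM in normal and 47.5 CPM in fibrogenic organoids, below the 90.6 and 50.6 CPM of Sfrp1+ FBs and beside 71.7 and 41.6 CPM in cycling FBs. Cthrc1 was detected in 43.5% of normal and 37.0% of fibrogenic organoid FBs, against 5.45% of repetitive bleomycin FBs. Cycling FBs, gated first, made up 32.2%, 30.3% and 1.07% in the same order. The gate thus does not hold a like range of cells, and this order is not compared with that of the lung. FBs with 10 or more Kif26b UMIs made up 11.4% of Cthrc1+ and 11.99% of Sfrp1+ FBs in normal organoids, and 8.26% and 2.28% in fibrogenic organoids, where median depths were 49522 and 4068 UMIs. Csmd1 was highest in alveolar-low FBs of normal organoids, at 1260 CPM, and in matrix FBs of fibrogenic organoids, at 651 CPM, against 541 CPM in normal matrix FBs. Matrix was the subset in which the summed CPM of Csmd1 was higher with fibrogenic FBs. The share of matrix FBs with 10 or more Csmd1 UMIs went the other way, from 31.1% (38 of 122) to 20.9% (24 of 115). Median depths there were 50168 and 31239 UMIs. Chl1 and Kif26b were lower, and Tnfsf8 higher, with fibrogenic FBs in every subset held by both libraries in at least 20 barcodes.

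**Figure D5:**
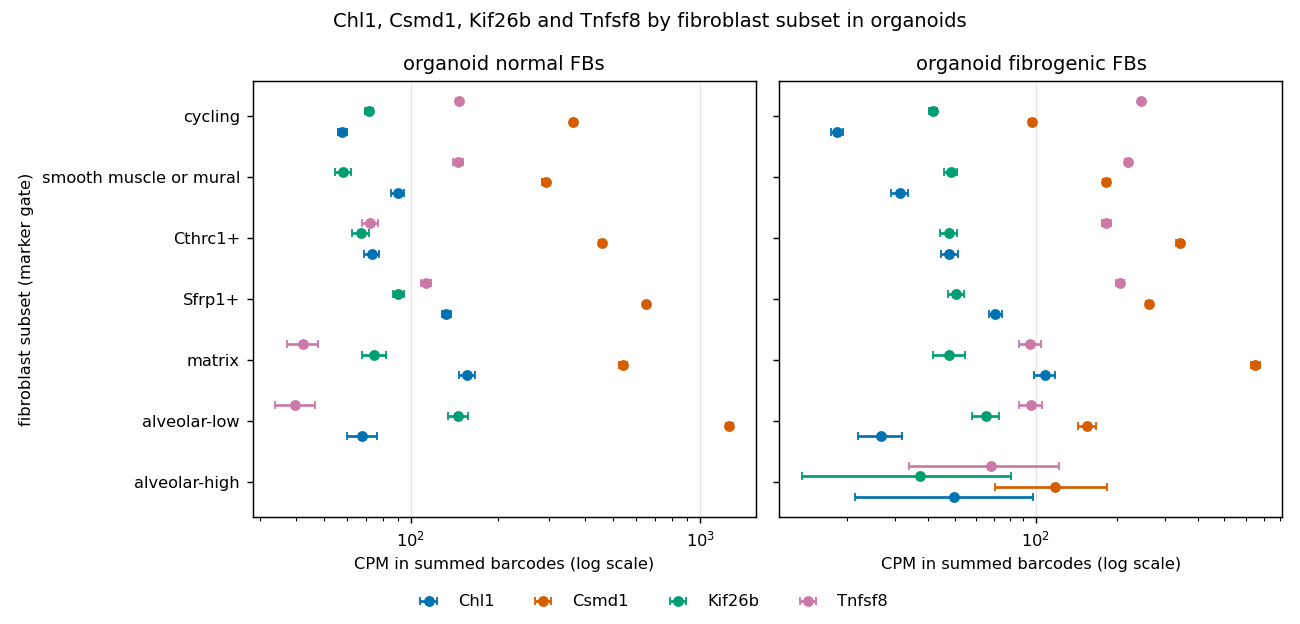
Levels of the 4 genes by marker-gated FB subset in organoids with normal (left) and fibrogenic (right) FBs, as CPM on log axes with exact 95% Poisson intervals. In cycling FBs Tnfsf8 is at 147 and 246 CPM and Chl1 at 58.0 and 18.3 CPM, so their distance is wider in the right panel.

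In organoids co-detection depended on depth. After thinning, in normal FBs the ratio was 1.62 for Chl1 with Csmd1, 1.26 for Chl1 with Kif26b and 1.05 for Csmd1 with Kif26b. It was below 1 for each pair with Tnfsf8, at 0.861 with Chl1, 0.692 with Csmd1 and 0.835 with Kif26b. In fibrogenic FBs it was 2.19 for Chl1 with Csmd1, 0.863 for Chl1 with Kif26b and 1.18 for Csmd1 with Kif26b, and Tnfsf8 was at 0.586 with Chl1, 0.708 with Csmd1 and 1.01 with Kif26b. Without thinning, 5 of 6 pairs in normal and 6 of 6 in fibrogenic FBs lay above 1, with ratios of 0.973 to 1.52 and 1.15 to 2.23, so no direction is read for the pairs with Tnfsf8. Chl1 with Csmd1, and Csmd1 with Kif26b, were above 1 in both organoid libraries and after repetitive bleomycin, thinned or not. The second pair was at only 1.05 in thinned normal FBs.

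The genes whose levels followed each of the 4 most closely were read over 17 sums of lung library and subset, which share libraries and depth, among 8335 genes, as Pearson's r of log2 CPM after adding 1. The sums take in PBS and bleomycin libraries, so the rise by which the 4 genes were chosen raises r between them. It also raises r with other genes that rose, such as Megf11 and Ereg, which ranked 14th and 18th by the smaller lung ratio. The sums also mix the tables of both experiments, which differed by gene span. Nothing is read from r, and the genes of closest pattern are listed as a description. Nearest to Chl1 were Tnfsf8, Entpd7 and Colgalt1, each at 0.92. Nearest to Kif26b were Megf11 (0.98), Col24a1 (0.98), a fibrillar collagen, and Ereg (0.96), an EGF receptor ligand. Csmd1 was followed by Pcdh7 (0.97), a protocadherin, Tmtc2 (0.96) and Filip1l (0.96), and Tnfsf8 by Chl1 (0.92), Dtx4 (0.90) and Fat1 (0.89).

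Wnt5a, Ror1 and Ror2, of the pathway in which KIF26B acts, had higher levels after bleomycin in both lung experiments. Of 13 genes of the Wnt5a-Ror pathway and the KIF26 family, 10 had at least 10 CPM in either single-dose library. Of these, 5 passed a log2 ratio of 1 upwards, and 3 of 9 did in the repetitive libraries, with none downwards. Of all genes with at least 10 CPM, 6.94% and 5.78% passed upwards, and none of these counts was tested. Ror1, Ror2, Vangl2 and Prickle1 were at 1.16, 5.29, 3.64 and 6.62 CPM with single-dose PBS and met the limit only with bleomycin. Nothing is therefore read from the single-dose count or the list's single-dose median. In the repetitive PBS library Wnt5a, Ror1 and Ror2 were at 21.4, 52.0 and 24.6 CPM. As log2 ratios, Wnt5a, the ligand, was at 1.54 and 1.66, and its receptors were at 2.84 and 1.85 for Ror1 and 1.44 and 1.58 for Ror2. The receptor Fzd7 had the lowest values of the list, at −0.70 and −0.53. The list's median was 1.00 and 0.80 against 0.07 and 0.08 over all genes. In organoids none of 8 genes passed in either direction. Of all genes 0.353% passed upwards there and 0.9% downwards, so nothing is read from this count. The list's median in organoids was 0.09, with Fzd2 (0.40) and Prickle1 (−0.58) at its ends. Kif26a, the paralog of Kif26b, stayed under 2 CPM in all 6 libraries.

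Of 12 L1 family and partner genes, 4 had at least 10 CPM after a single dose and 5 after repetitive doses, with 2 upwards in each, beside a background of 6.94% and 5.78% of all genes. Among genes with at least 10 CPM, the neural adhesion gene Ncam1 had the highest ratio after a single dose, at 2.50. Nrp1, a semaphorin co-receptor, had the lowest of these, at 0.49. Ncam1 went from 0.993 to 10.3 CPM and met the limit only with bleomycin, so nothing is read from the single-dose count. Nrcam, an L1 family member like Chl1, was the one with at least 10 CPM and past the ratio in both, at 2.36 and 1.40. Of genes below 10 CPM in either experiment, Nfasc (1.59 and 2.25) and Ncam1 (2.50 and 1.33) also passed upwards in both. Cntn1 passed downwards in both, at −1.18 and −1.10. Of 12 CSMD family and complement regulators, 1 of 8, near the background of 6.94%, and 3 of 9, against 5.78%, passed upwards, and Clu, which encodes the complement inhibitor clusterin, did so in both, at 2.30 and 2.38. Clu was at 6.62 and 6.93 CPM with PBS, so it entered both counts only through bleomycin. Among genes of that list with at least 10 CPM, the complement inhibitor gene Serping1 was the lowest after a single dose, at −0.39. Cd46 was the lowest after repetitive doses, at −0.31. Csmd2, Csmd3 and L1cam were under 2 CPM throughout. In organoids none of the 7 genes with at least 10 CPM on each list passed in either direction. Of all genes 0.353% passed upwards there and 0.9% downwards, so nothing is read from these counts.

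Of 18 TNF superfamily ligands and CD30, 2 had at least 10 CPM after a single dose and 5 after repetitive doses, with none of these past a ratio of 1 upwards, where 6.94% and 5.78% of all genes were. Below 10 CPM, Tnfsf18 (GITR ligand) went from 1 to 55 UMIs and from 18 to 198 UMIs, at 2.44 and 1.74, and Tnfsf9 (4-1BB ligand) from 6 to 67 and from 75 to 223 UMIs, at 1.91 and 1.07. Of the 2 genes with at least 10 CPM after a single dose, Tnfsf13b (BAFF), a B cell survival factor, had the higher ratio, at −0.51. Tnfsf12 (TWEAK) had the lower, at −0.69. Eda (ectodysplasin) was the 1 gene past a ratio of 1 downwards after repetitive doses, at −1.46, where 2.38% of all genes did. After a single dose Eda was below 10 CPM and went from 6.29 to 2.42 CPM, at −1.09. The list's median over genes with at least 10 CPM was −0.60 and −0.34. In organoids 1 of 4 passed upwards, Tnfsf15, at 1.13, from 75.2 to 166 CPM, where 0.353% of all genes did. Tnfrsf8, which encodes the receptor of TNFSF8, had 0 and 1 UMIs in single-dose FBs, 7 and 1 in repetitive FBs and 13 and 38 in organoid FBs, at most 0.245 CPM.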

How the data were processed

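GFP+ cells of 4 lung preparations and cells of 2 organoid cultures were measured by 10x Genomics droplet RNA-Seq. The deposited files are tables of raw UMI counts per gene and barcode. For the single-dose libraries the authors aligned reads to GRCm38 (mm10) with Cell Ranger 3.0.1 and used Seurat 3 downstream. The authors name an annotation without saying whether it covers the later tables, whose gene rows differ in number. The intron setting of the later tables is not given in the sources used here. The 4 genes and all gene lists were chosen with earlier results of these data known.

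From the counts, barcodes were gated by markers (1000 or more UMIs, at most 25% mitochondrial), UMIs were summed per library, and CPM got exact 95% Poisson intervals and shares Clopper-Pearson intervals, for counting error only, and a count of 0 was taken to allow up to 3. Ratios took log2 after adding 1 CPM over genes with 10 or more CPM in either library. No doublet caller was run, and barcodes with 2 or more markers of another type were left out of FBs where these reached 2 UMIs per 10000. Each barcode was thinned once to 2000 UMIs (seed 1). There was 1 library per condition, and the lung ratios chose the genes, so no test was run and no p-value is given. Genes named beside the 4 were the highest and lowest of each pathway list, those past a ratio of 1 in both lung experiments, 3 on each side of the last member in rank, and 3 of closest pattern per gene. Python 3.11.15, numpy 2.4.6, scipy 1.17.1, pandas 2.3.3 and scanpy 1.11.5 were used, and scripts were tested on simulated data.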

Additional observations from a re-analysis of the deposited data

Results flagged for a closer look

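Barcodes left out by the UMI and mitochondrial limits also held the genes. In the repetitive bleomycin library 2046 such barcodes had 46.7 CPM of Chl1 and 499.8 CPM of Csmd1, against 0 UMIs of either in 160 barcodes of the PBS library, which allows up to 22.3 CPM. In the organoids with fibrogenic FBs 1283 such barcodes had 64.5 CPM of Csmd1 and 80.6 CPM of Tnfsf8, against 26.8 and 29.0 CPM in 742 barcodes with normal FBs.

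Chl1, Csmd1 and Kif26b went down from normal to fibrogenic organoid FBs, at log2 ratios of −1.37, −1.43 and −0.76, whereas they went up from PBS to bleomycin in both lung experiments. The difference between culture and lung was not tested.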

How the results depend on the processing

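Other gates, UMI and mitochondrial limits, pseudocounts, centring, thinning depths and Leiden clusters left 95 of 98 recomputed counts of genes or pairs within 1.5 times the reported count. Among these, the counts of genes raised, or of higher share, after bleomycin in the lung rest on the contrast that chose the genes. They stayed at 4 throughout, and nothing is read from that. Counts from thinned barcodes use only those of 2000 or more UMIs. A UMI minimum of 2000, or none, therefore could not change these. With any barcode holding a UMI of another type's marker left out, which reduced single-dose bleomycin FBs from 840 to 395, the pairs co-detected there above the product went from 4 to 0. With a Cthrc1+ gate of 1 UMI, 1 gene instead of 2 was highest in Cthrc1+ FBs after a single dose. With barcodes of 10 or more UMIs of any of the 4 genes left out, chosen after seeing the data, 1 gene instead of 0 passed upwards in organoid FBs (Tnfsf8, log2 ratio 1.38), under a filter on the genes' own counts that left 1139 of 2193 normal and 3162 of 4282 fibrogenic FBs. No log2 ratio changed sign. Of 168 recomputed log2 ratios, 51 lay outside the 95% counting interval of the reported value. Across settings Chl1 ranged from 3.52 to 9.04 after a single dose, 3.84 to 7.08 after repetitive doses and −1.42 to −0.67 in organoids. Csmd1 ranged from 1.77 to 3.68, 4.02 to 4.74 and −1.44 to −0.14, Kif26b from 2.32 to 5.66, 3.96 to 7.29 and −0.79 to −0.63, and Tnfsf8 from 1.97 to 7.20, 2.17 to 4.996 and 0.79 to 1.38. The Cthrc1+ result after a single dose could not be computed with any other-type UMI left out or with a 4-UMI gate, which left under 20 barcodes. In the single-dose libraries at most 4 bleomycin FBs held any pair at 2000 UMIs, and PBS levels rested on 0 to 7 UMIs. No paired analysis was run. The groups compared share 1 replicate number, and the lung pairs, which could be fitted together over both experiments, chose the genes.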
